A study of Homo sapiens with 4 samples.

Results

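The 10 genes described here code for the 5 subunits of the transcription factor NF-kappaB (NFKB1, NFKB2, REL, RELA and RELB) and for 5 proteins that NF-kappaB induces and that act back on the pathway (NFKBIA, NFKBIE, NFKBIZ, TNFAIP3 and BIRC3). They were chosen by gene name, each name matched 1 row, and they are 10 of 58825 genes in the deposited table. The data were 4 RNA-seq libraries of HaCaT cells, an established human keratinocyte line that became immortal without a viral oncogene and that calcium drives to differentiate. In 2 libraries the cells had received lentivirus with a short hairpin (shlnc-DC) that targets lnc-DC, a long noncoding RNA, and in the other 2 lentivirus with a control hairpin (shNC). All cells were grown in MEPICF500 medium with 1.2 mM calcium, and the stated aim was the expression signature of differentiating cells with lnc-DC silenced. The labels call the libraries of a group biological replicates and do not say whether these were separate transductions, nor how many hairpins were used, and the spread that p-values rest on may be technical.

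NF-kappaB subunits work as dimers. In resting cells inhibitors of the IkB family hold the dimers in the cytoplasm; in the canonical pathway TNF or interleukin-1 leads through the IKK kinases to loss of IkB and release of dimers such as NFKB1-RELA, and in the non-canonical pathway the NFKB2 precursor is processed to a form that pairs with RELB. The dimers induce their own inhibitors, and in keratinocytes the pathway is known for the production of cytokines and chemokines and for protection from cell death.

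The mean level of TNFAIP3 was 2.17 times as high in lnc-DC knockdown cells as in control cells, that of RELB 1.66 times and that of NFKB1 1.36 times. For these 3 genes both knockdown libraries lay above both control libraries, yet none of the 10 genes passed the test over all genes. The test was limma on log2(FPKM + 1), two-sided, with Benjamini-Hochberg adjustment over 12411 genes, those whose mean in knockdown or control cells reached 1 FPKM (fragments scaled by transcript length and by the library's total), and a threshold of 0.05. All 10 genes passed that filter on low values. At this threshold 0 of the 10 genes were called, against 0.25% of all tested genes (0.113% higher and 0.137% lower). At an unadjusted p under 0.05, 3 of the 10 were higher in knockdown cells and 0 lower, where 14.8% of all tested genes were higher and 8.0% lower (22.8% in either direction). The groups did not overlap for 4 of the 10, all higher in knockdown cells, against 35.6% of all tested genes that were higher and 19.2% that were lower without overlap (54.8% in either direction), so that share was close to the background. Of the 10 log2 fold changes 9 lay above 0, with a median of 0.18, against 61.4% above 0 and a median of 0.09 over all tested genes.

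**Figure D1:**
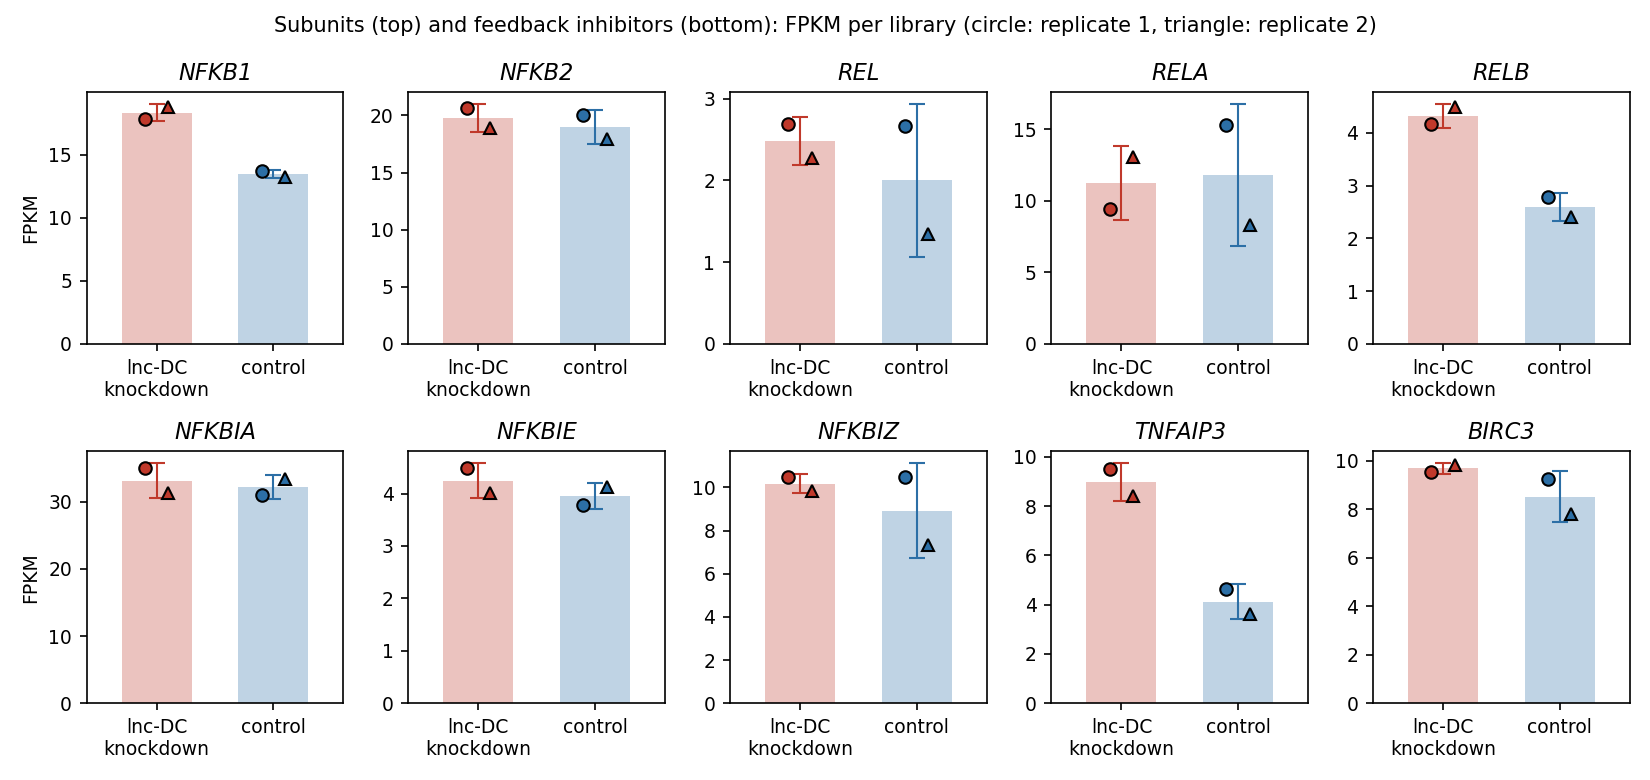
FPKM of the 10 genes in each library, with subunits in the top row and feedback inhibitors in the bottom row. Bars show the mean and error bars the SD of 2 libraries, circles are replicate 1 and triangles replicate 2, and each panel has its own linear axis from 0. TNFAIP3 stood at 9.51 and 8.42 FPKM in the knockdown libraries, against 4.64 and 3.61 in the control libraries, whereas the symbols of RELA cross between the groups.

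Facts of the whole series bear on these values. The transcript of lnc-DC, WFDC21P (ENSG00000261040), stood at 0.09 and 0.29 FPKM in the knockdown libraries and at 2.15 and 2.76 FPKM in the control libraries (limma adjusted p = 0.0715), so the targeted RNA was lower where the labels say so, with the groups apart, without passing the threshold. Mitochondrially encoded transcripts took up 28.1% and 26.8% of summed FPKM in the knockdown libraries and 41.2% and 41.9% in the control libraries. On this relative scale such a difference can shift other values, and its part in the results was not tested. With mitochondrial genes removed and the rest rescaled, the log2 fold changes of TNFAIP3, RELB and NFKB1 were 0.93, 0.53 and 0.38. The median over all tested genes was 0.06 after that rescaling and 0.09 before it. Of 8 keratinocyte markers 6 were tested, and the summed level of the list was 386 and 424 FPKM in the knockdown libraries and 678 and 725 FPKM in the control libraries; KRT14 and KRT17, usual keratins of this cell type, were below the filter. Their part in the results was not tested. Summed markers of fibroblasts did not exceed 0.67 FPKM. Those of leukocytes came to 1.02 and 1.3 FPKM in the knockdown libraries and 3.16 and 1.76 FPKM in the control libraries, with the defining marker PTPRC listed at 0 in all 4. The endothelial markers summed to 3.93 and 6.44 FPKM in the knockdown libraries and 4.58 and 3.61 FPKM in the control libraries. Of these, PECAM1 and VWF were below the filter, and the highest single value of the list was 6.42 FPKM. In bulk RNA, fewer cells that express a gene and less RNA per cell cannot be told apart.

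Stretches of promoter that carry matches to the kappaB consensus, the DNA pattern that NF-kappaB dimers bind, are shown because most of these genes are known targets of NF-kappaB itself. The windows were RefSeq promoters (GRCh38.p14), each 300 bases, from 250 before to 50 after a transcription start, and 8 of the 10 genes were matched, with 13 windows; RELB and NFKBIE were not matched. The consensus was searched on both strands by its usual degenerate form, and beside it a stricter pattern, GGGA followed by any base and then TTTCC, whose matches are all matches of the consensus too. Each line gives the gene's strand, 5′ to 3′, with the matches in capitals; a match that starts with GGA reads as the pattern on the other strand.
TNFAIP3, chr6:137867188-137867217, plus strand: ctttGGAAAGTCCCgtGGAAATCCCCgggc
NFKB1, chr4:102501300-102501329, plus strand: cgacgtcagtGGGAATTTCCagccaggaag
NFKBIA, chr14:35404811-35404840, minus strand: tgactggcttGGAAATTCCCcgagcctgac
REL, chr2:60881518-60881547, plus strand: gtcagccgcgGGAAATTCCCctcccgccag
NFKB2, chr10:102395674-102395703, plus strand: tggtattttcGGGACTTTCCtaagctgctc
NFKBIZ, chr3:101827757-101827786, plus strand: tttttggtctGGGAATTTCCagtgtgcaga
BIRC3, chr11:102317275-102317304, plus strand: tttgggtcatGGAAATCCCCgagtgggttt

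The consensus was found in 9 of the 13 windows, which belong to 7 of the 8 matched genes, and in 7.73% of all 35116 RefSeq windows and 9.25% of the 12307 windows of tested genes. BIRC3 held a consensus match that does not meet the strict pattern, 199 bases before its start. The strict pattern was found in 6 of the 13 windows, 1 each of NFKB1, NFKB2, NFKBIA, NFKBIZ, REL and TNFAIP3, and in 0.558% of all windows and 0.601% of those of tested genes; these 6 genes are known targets of the factor. In TNFAIP3 the matches began 67 and 55 bases before the RefSeq start, in REL 46 and in NFKBIA 81 bases before it. In NFKB1 the match began 49 bases before 1 RefSeq start, and the window of the other start held none. NFKBIZ held the strict match 223 bases before 1 start and another consensus match 239 bases before the other. NFKB2 held matches 21 and 176 bases before 1 of its 3 starts, and 107 and 78 bases before another. Neither window of RELA held these letters. These distances hold for the RefSeq starts only. By the GENCODE 29 gene positions given with each gene below, the matches of TNFAIP3, REL and NFKB2 lie after the gene's start. The same holds for the NFKBIZ match 239 bases before a RefSeq start. Of the 6 genes with the strict pattern, TNFAIP3 and NFKB1 had knockdown and control libraries that did not overlap. The libraries of NFKBIA, NFKB2, REL and NFKBIZ did overlap. Over all tested genes, 54.8% had groups without overlap. The whole 250 bases before the start of NFKBIA, the inhibitor with the highest level here, read as follows on its own strand, with the match in capitals.
NFKBIA, chr14:35404750-35404999, minus strand: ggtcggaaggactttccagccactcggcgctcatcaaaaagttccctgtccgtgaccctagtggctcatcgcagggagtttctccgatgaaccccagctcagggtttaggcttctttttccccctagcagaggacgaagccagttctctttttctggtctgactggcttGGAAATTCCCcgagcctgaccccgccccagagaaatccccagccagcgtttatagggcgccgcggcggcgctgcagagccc

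**Figure D2:**
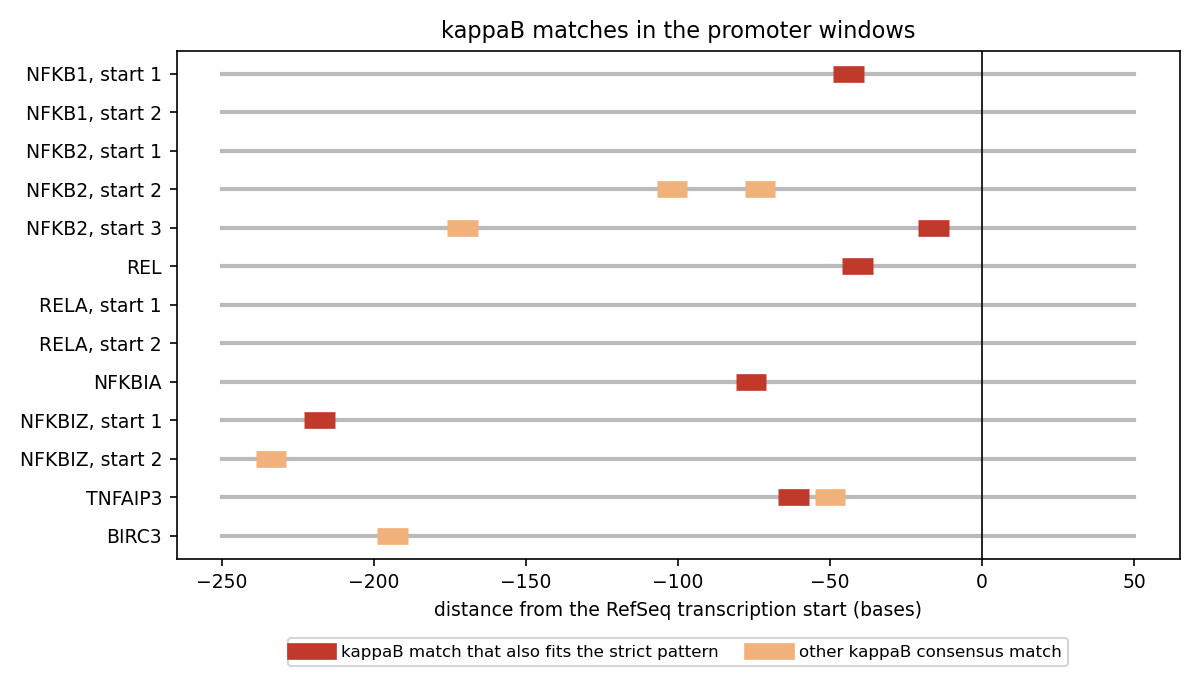
Positions of kappaB matches in the 13 promoter windows of 8 genes, as distance in bases from the RefSeq transcription start (0, black line). Dark bars mark matches that also meet the strict pattern, light bars other consensus matches. The matches of TNFAIP3, NFKB1, REL and NFKBIA lie within 81 bases of the start, and both RELA windows are empty.

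Among the subunits, NFKB1 (ENSG00000109320; chromosome 4, 102501329 to 102617302 in GENCODE 29, GRCh38) codes for p105, the precursor of p50, the usual DNA-binding partner of RELA. It stood at 17.84 and 18.82 FPKM in the knockdown libraries and at 13.68 and 13.25 FPKM in the control libraries. Both knockdown libraries were high, and the replicates of each group lay close together. On the log2 scale the difference was 0.42 (SE 0.103, 95% interval 0.15 to 0.69), with a limma adjusted p of 0.122.

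RELB (ENSG00000104856; chromosome 19, 45001430 to 45038198), the partner of processed NFKB2 in the non-canonical pathway, had 4.16 and 4.48 FPKM in the knockdown libraries, against 2.78 and 2.41 FPKM in the control libraries. The groups were apart, at a level in the lower part of the tested genes. Its log2 fold change of 0.57 (SE 0.128, 95% interval 0.23 to 0.90; limma adjusted p = 0.114) exceeded that of 93.5% of tested genes.

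NFKB2 (ENSG00000077150; chromosome 10, 102394110 to 102402529), which codes for p100, both a precursor of p52 and an IkB-like inhibitor, stood at 20.64 and 18.90 FPKM in the knockdown libraries and at 20.05 and 17.97 FPKM in the control libraries. The groups overlapped. Its log2 fold change was 0.05, with a 95% interval from -0.25 to 0.36 (limma adjusted p = 0.805), so these libraries limit a difference in NFKB2 more closely than one in RELA.

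RELA (ENSG00000173039; chromosome 11, 65653596 to 65663094), the p65 subunit with the main activation domain of the canonical pathway, had 9.43 and 13.05 FPKM in the knockdown libraries and 15.31 and 8.31 FPKM in the control libraries. The highest and the lowest value were both control libraries. The gap between the control replicates, 0.81 on the log2 scale, was wider than that of 96.0% of tested genes, and that of the knockdown replicates, 0.43, wider than 86.5%. The log2 fold change of -0.03 therefore carried a 95% interval from -0.85 to 0.80 (limma adjusted p = 0.969), and it became 0.38 without control replicate 1 and -0.43 without control replicate 2. An antisense gene that overlaps RELA exons, AP001362.2, was listed between 0.58 and 1.8 FPKM; the strand setting of the quantification is not given in the sources used here.

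REL (ENSG00000162924; chromosome 2, 60881521 to 60931610), the c-Rel subunit best known from lymphocytes, had the lowest level of the 10 genes, with 2.69 and 2.27 FPKM in the knockdown libraries and 2.66 and 1.34 FPKM in the control libraries. Control replicate 2 alone was low, and the groups overlapped. Its log2 fold change was 0.25 (95% interval -0.41 to 0.91; limma adjusted p = 0.59), and -0.08 without control replicate 2. REL shares exons on the same strand with AC010733.2, listed at 0.66 to 1.0 FPKM, so the division of reads between them is uncertain.

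**Figure D3:**
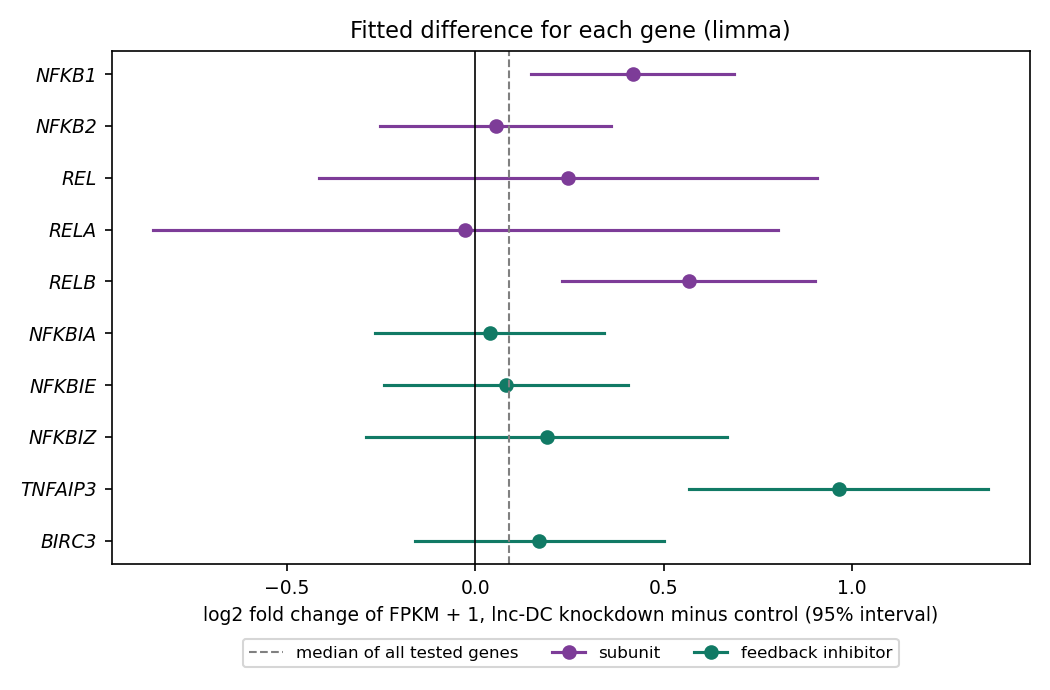
Fitted log2 fold changes (knockdown minus control, log2 of FPKM + 1) of the 10 genes with 95% intervals from limma; the dashed line is the median of all tested genes. The intervals of TNFAIP3, RELB and NFKB1 lie above 0, without adjustment for the number of genes tested, and that of RELA, from -0.85 to 0.80, is the widest.

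Because FPKM is relative to library totals, the subunits were also set against each other within each library, where no scaling factor counts. NFKB1 made up 32.6% and 32.7% of the summed subunit FPKM in the knockdown libraries and 25.1% and 30.6% in the control libraries. RELB made up 7.60% and 7.79% in the knockdown libraries and 5.10% and 5.57% in the control libraries. For both shares the groups did not overlap (exact permutation test, two-sided, p = 0.333, the smallest that 2 libraries against 2 allow). RELA made up 17.2% and 22.7% in the knockdown libraries and 28.1% and 19.2% in the control libraries, and its share, like those of NFKB2 and REL, overlapped between groups (exact permutation p = 0.667 for each). The control replicates differed enough to move these differences: that of NFKB1, knockdown minus control, was 4.79 percentage points over all libraries, 2.03 without control replicate 1 and 7.54 without control replicate 2. That of RELA was -3.70 points over all libraries, 0.754 without control replicate 1, -8.15 without control replicate 2 and -0.964 without knockdown replicate 1. That of RELB lay between 2.12 and 2.59 points when any 1 library was left out. NFKB2 was the largest share in every library, between 32.9% and 41.5%; its difference of -3.89 points lay between -6.30 and -1.47 when single libraries were left out, and that of REL, 0.44 points, between -0.453 and 1.33.

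**Figure D4:**
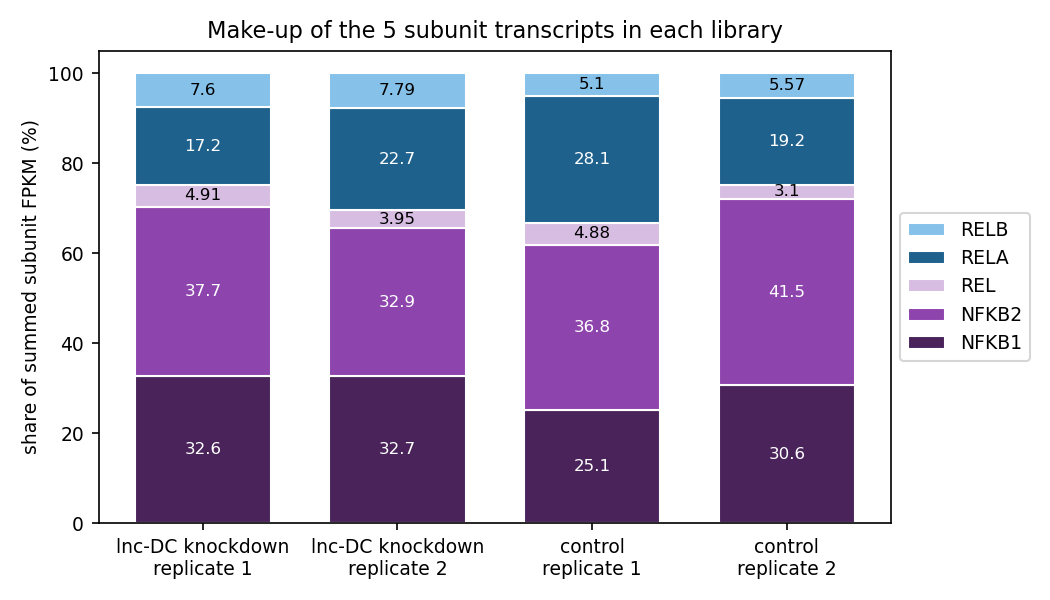
Share of each subunit in the summed FPKM of NFKB1, NFKB2, REL, RELA and RELB, in percent, for each library, with the knockdown libraries on the left. The RELB segment is 7.60% and 7.79% in the knockdown libraries and 5.10% and 5.57% in the control libraries, and the RELA segment ranges from 17.2% to 28.1% across the 4 libraries.

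Of the feedback inhibitors, TNFAIP3 (ENSG00000118503; chromosome 6, 137867188 to 137883312) codes for A20, a ubiquitin-editing enzyme that ends signalling from TNF and interleukin-1 receptors. It stood at 9.51 and 8.42 FPKM in the knockdown libraries, against 4.64 and 3.61 FPKM in the control libraries, with means of 8.96 ± 0.771 FPKM in knockdown and 4.12 ± 0.728 FPKM in control cells (SD, n = 2 each). Every knockdown value was well above every control value. The log2 fold change was 0.96 (SE 0.151, 95% interval 0.57 to 1.36), larger than that of 98.6% of tested genes, with a limma adjusted p of 0.0825, short of the threshold. It lay between 0.82 and 1.11 when single libraries were left out. In the authors' deposited table its log2 ratio is 1.12. The antisense gene AL357060.1, which overlaps TNFAIP3 exons on the other strand, did not exceed 0.11 FPKM.

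NFKBIA (ENSG00000100906; chromosome 14, 35401511 to 35404749), the classical IkB-alpha that is lost and rebuilt with each canonical stimulus, had 35.00 and 31.33 FPKM in the knockdown libraries and 31.01 and 33.47 FPKM in the control libraries. It was the most abundant of the 10 genes in every library, and the groups overlapped. The log2 fold change was 0.04, with a 95% interval from -0.27 to 0.34 (limma adjusted p = 0.865), and its sign turned under quantile normalization (-0.09).

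NFKBIE (ENSG00000146232; chromosome 6, 44258166 to 44265788), which codes for IkB-epsilon, an inhibitor of RELA and REL dimers, had 4.48 and 4.01 FPKM in the knockdown libraries and 3.78 and 4.13 FPKM in the control libraries. The groups overlapped, and the interval of the log2 fold change ran from -0.24 to 0.41 (limma adjusted p = 0.721).

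NFKBIZ (ENSG00000144802; chromosome 3, 101827991 to 101861022) codes for IkB-zeta, a nuclear IkB protein that also activates a subset of target genes and is known from psoriatic skin. It stood at 10.48 and 9.85 FPKM in the knockdown libraries and at 10.47 and 7.35 FPKM in the control libraries. Control replicate 2 was low while the other 3 libraries lay together. For NFKBIZ the log2 fold change was 0.19 (95% interval -0.29 to 0.67; limma adjusted p = 0.571), 0.42 without control replicate 1 and -0.04 without control replicate 2.

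BIRC3 (ENSG00000023445; chromosome 11, 102317450 to 102339403), the ubiquitin ligase cIAP2 that protects from TNF-induced death, had 9.53 and 9.83 FPKM in the knockdown libraries and 9.25 and 7.79 FPKM in the control libraries. The groups did not overlap, but the gap between them was narrow. The log2 fold change was 0.17 (95% interval -0.16 to 0.50; limma adjusted p = 0.468).

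The summed FPKM of the 5 inhibitors was 1.26 and 1.1 times that of the 5 subunits in the knockdown libraries and 1.09 and 1.3 times in the control libraries, so the ratio overlapped between groups (exact permutation test, two-sided, p = 1.0). That comparison sets lists of transcripts side by side and does not measure inhibition. IkB-zeta also activates a subset of target genes, and p100, counted here with the subunits, is also an IkB-like inhibitor. Within the inhibitors, TNFAIP3 stood at 0.272 and 0.269 of the level of NFKBIA in the knockdown libraries and at 0.150 and 0.108 of it in the control libraries. Within the non-canonical pair, RELB stood at 0.202 and 0.237 of the level of NFKB2 in the knockdown libraries and at 0.139 and 0.134 of it in the control libraries. Both ratios were chosen after the values were seen and are given without a test.

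By mean FPKM, a level per transcript length, the 10 genes kept almost the same order in both groups. In knockdown cells the order was NFKBIA (33.2), NFKB2 (19.8), NFKB1 (18.3), RELA (11.2), NFKBIZ (10.2), BIRC3 (9.68), TNFAIP3 (8.96), RELB (4.32), NFKBIE (4.25) and REL (2.48 FPKM). In that order the libraries of RELA and NFKBIZ, and of RELB and NFKBIE, overlapped. NFKBIZ (lowest 9.85 FPKM) and BIRC3 (highest 9.83 FPKM) were barely apart, as were BIRC3 (lowest 9.53 FPKM) and TNFAIP3 (highest 9.51 FPKM). RELA (9.43 and 13.05 FPKM) overlapped BIRC3 and TNFAIP3 too. With 2 libraries per group, the order of such close neighbours is uncertain. In control cells RELB (2.59 FPKM) stood below NFKBIE (3.96 FPKM), and 5 pairs of neighbours overlapped: NFKB1 and RELA, RELA and NFKBIZ, NFKBIZ and BIRC3, TNFAIP3 and NFKBIE, and RELB and REL.

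The genes with the profile most like TNFAIP3 over the 4 libraries, by Euclidean distance of log2 values centred on each gene's mean, were RPUSD4 (distance 0.0474), DCBLD2 (0.0531) and GTF2H3 (0.0718). DCBLD2, a membrane protein, had 23.92 and 21.56 FPKM in the knockdown libraries and 12.51 and 10.47 FPKM in the control libraries. For RELB they were SACM1L (0.0212), IPO7 (0.0217) and ATP10D (0.0341). IPO7, which codes for an importin, had 70.43 and 73.74 FPKM in the knockdown libraries and 51.36 and 45.52 FPKM in the control libraries. With 4 libraries such likeness says little more than the size of the group difference.

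Upstream of the subunits, the ligands gave the only call in the pathway lists. Of 9 ligand genes 2 were tested, and IL1A, an alarmin released by keratinocytes, rose: it stood at 41.37 and 47.30 FPKM in the knockdown libraries and at 15.69 and 14.37 FPKM in the control libraries (log2 fold change 1.5, limma adjusted p = 0.0463). IL1B, the other interleukin-1 gene, had 27.84 and 30.18 FPKM in the knockdown libraries and 16.49 and 16.75 FPKM in the control libraries, with an adjusted p of 0.0747. TNF, LTA, LTB, IL36G, TNFSF12, TNFSF11 and CD40LG were below the filter. The call of IL1A was lost when any 1 library was left out (adjusted p from 0.168 to 0.245), with no filter (0.17), with the replicate number as a block (0.098), with no trend (0.0655) and under median centring (0.0514), while the log2 fold change stayed between 1.39 and 1.59 over all alternatives.

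Of 12 receptor genes 7 were tested and none passed, with 5 above and 2 below 0 and a median of 0.05. That median was 0.23 without knockdown replicate 2 and -0.03 without control replicate 2, and 3 of the 7 lay above 0 without control replicate 2, under quantile normalization and under median centring. TNFRSF21, the death receptor DR6, averaged 70.5 ± 5.28 FPKM in knockdown cells and 104 ± 6.92 FPKM in control cells (SD, n = 2 each; limma adjusted p = 0.112). TNFRSF12A, the TWEAK receptor, averaged 36.1 ± 2.18 FPKM in knockdown cells and 29.7 ± 0.431 FPKM in control cells (adjusted p = 0.226), and TLR3, a sensor of double-stranded RNA, 3.96 ± 0.495 FPKM in knockdown and 3.27 ± 0.912 FPKM in control cells (adjusted p = 0.525). At an unadjusted p under 0.05, 1 of 7 receptors was lower and 0 higher, against 8.0% lower and 14.8% higher over all tested genes.

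Among adaptors and ubiquitin ligases 13 of 14 were tested and none passed; 6 lay above and 7 below 0, with a median of -0.03. Without control replicate 1 the median was 0.21, with 9 above 0. IRAK1, a kinase of the interleukin-1 receptor complex, averaged 45.6 ± 4.0 FPKM in knockdown cells and 34.1 ± 1.8 FPKM in control cells (SD, n = 2 each; limma adjusted p = 0.152), and TRAF6, the ubiquitin ligase after it, 3.64 ± 0.255 FPKM in knockdown and 2.48 ± 0.389 FPKM in control cells (adjusted p = 0.19). SHARPIN, of the linear ubiquitin ligase complex, averaged 5.51 ± 0.148 FPKM in knockdown cells and 6.93 ± 0.262 FPKM in control cells (adjusted p = 0.22). At an unadjusted p under 0.05, 2 of the 13 were higher and 0 lower, which is close to the 14.8% higher over all tested genes (8.0% lower).

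All 10 kinase genes were tested and none passed, with 7 above and 3 below 0 and a median of 0.08, next to 0.09 over all genes. The median turned to -0.02 without knockdown replicate 1 and to -0.04 without control replicate 2, with 4 above 0 in each, and was 0.18 without knockdown replicate 2 and 0.19 without control replicate 1. Under quantile normalization it was -0.01 with 4 above 0, under median centring -0.0038, and with the stricter filter of 5 FPKM 0.31. CHUK, which codes for the kinase IKK-alpha, stood at 14.19 and 13.83 FPKM in the knockdown libraries and at 9.25 and 6.76 FPKM in the control libraries (limma adjusted p = 0.112). TBK1, an IKK-related kinase, stood at 10.16 and 9.81 FPKM in the knockdown libraries and at 6.35 and 6.21 FPKM in the control libraries (adjusted p = 0.0925). MAP3K14, the kinase NIK that starts NFKB2 processing, overlapped between groups, with 4.88 and 6.01 FPKM in knockdown and 5.75 and 2.30 FPKM in control libraries (adjusted p = 0.508). At an unadjusted p under 0.05, 2 of the 10 kinases were higher and 0 lower, near the 14.8% higher and 8.0% lower over all tested genes.

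Other brakes on the pathway lay above 0, as did most tested genes, and none passed. Of 10 deubiquitinases and other brakes 9 were tested. All 9 log2 fold changes were above 0 (median 0.20), against 61.4% above 0 and a median of 0.09 over all tested genes. Of the 9, 6 exceeded that all-gene median. Median centring left 6 of the 9 above 0, quantile normalization 7, nuclear rescaling 7 and leaving out any 1 library 7 or 8. ITCH, a ubiquitin ligase that works with A20, averaged 32.4 ± 0.148 FPKM in knockdown cells and 19.1 ± 1.73 FPKM in control cells (SD, n = 2 each; limma adjusted p = 0.0812). TNIP1, an A20-binding protein, averaged 29.9 ± 1.64 FPKM in knockdown and 23.2 ± 2.40 FPKM in control cells (adjusted p = 0.192), and the deubiquitinase CYLD 3.19 ± 0.262 FPKM in knockdown and 2.25 ± 0.488 FPKM in control cells (adjusted p = 0.256). The groups did not overlap for 5 of the 9, all higher in knockdown cells. Over all tested genes 35.6% were higher and 19.2% lower without overlap (54.8% in either direction). At an unadjusted p under 0.05, 2 of the 9 were higher and 0 lower, against 14.8% higher and 8.0% lower over all tested genes. Of the other IkB genes, NFKBIB had 7.97 and 7.79 FPKM in the knockdown libraries and 6.30 and 6.09 FPKM in the control libraries (adjusted p = 0.192), and BCL3, a nuclear IkB protein, had 2.64 and 1.92 FPKM in the knockdown libraries and 3.38 and 2.85 FPKM in the control libraries (adjusted p = 0.321). NFKBID was not analysed here.

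Known target genes downstream were split. Of 26 listed genes 20 were tested and none passed; 13 lay above and 7 below 0, with a median of 0.15. At an unadjusted p under 0.05, 6 of the 20 were higher and 4 lower, where 14.8% of all tested genes were higher and 8.0% lower. The groups did not overlap for 9 that were higher and 5 that were lower, 14 of 20 in all, against 35.6% higher, 19.2% lower and 54.8% in either direction over all tested genes. CXCL1, a chemokine for neutrophils, stood at 35.18 and 33.75 FPKM in the knockdown libraries and at 18.28 and 21.42 FPKM in the control libraries (limma adjusted p = 0.0836). In the other direction, the chemokine CCL5 had 2.76 and 2.83 FPKM in the knockdown libraries and 6.45 and 6.87 FPKM in the control libraries (adjusted p = 0.0636), and IRF1, a transcription factor that interferon also induces, had 13.07 and 11.62 FPKM in the knockdown libraries and 20.98 and 21.62 FPKM in the control libraries (adjusted p = 0.0785). The listed targets thus had values in both directions, and the list as a whole was not tested.

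**Figure D5:**
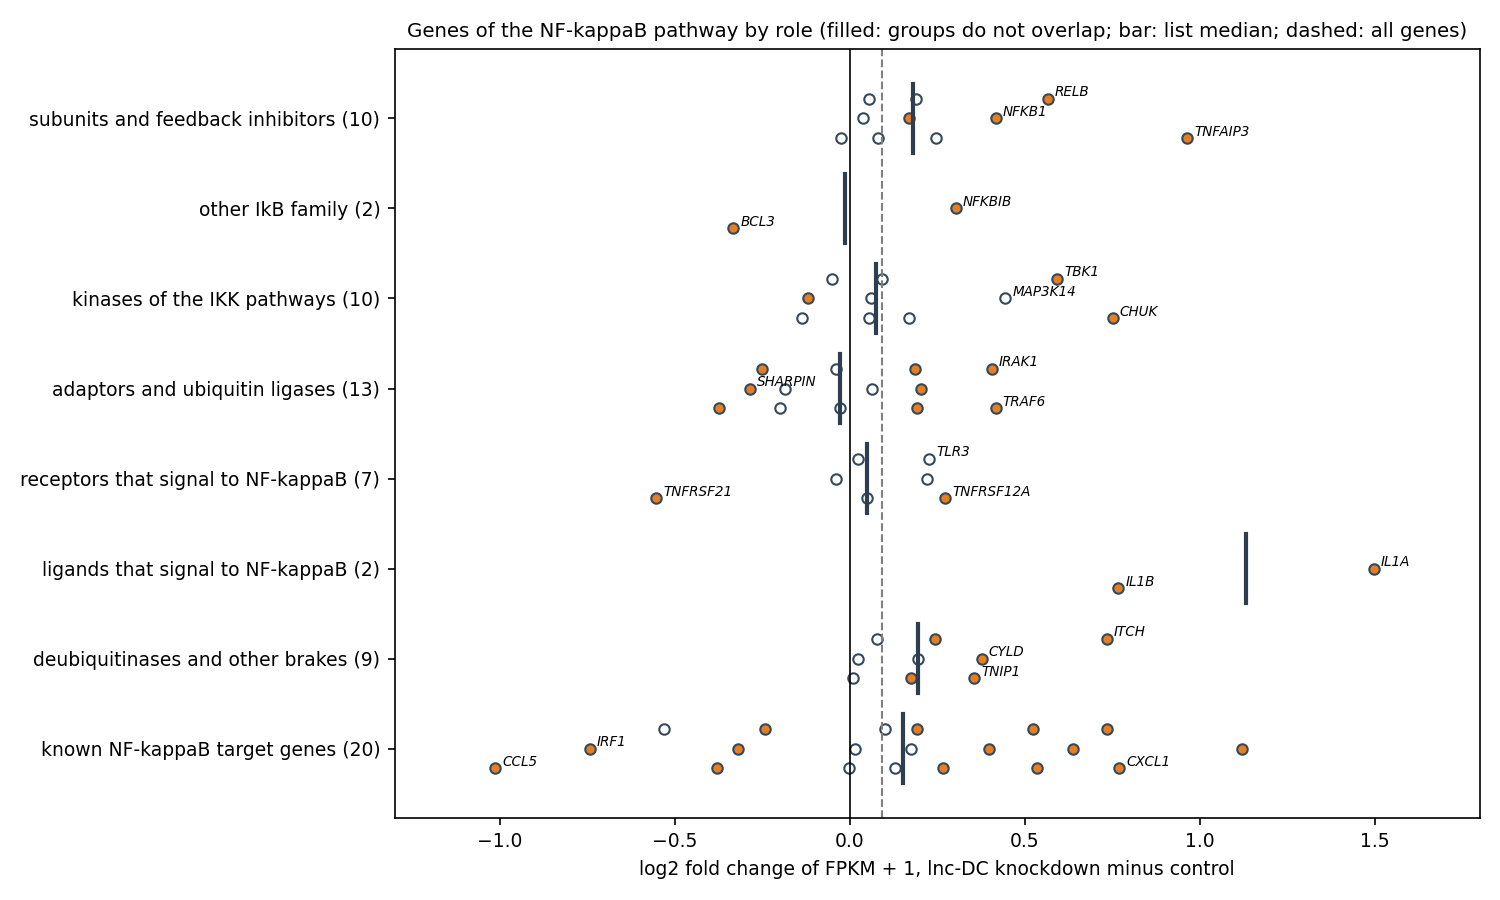
Log2 fold changes (knockdown minus control, log2 of FPKM + 1) of all tested genes of the NF-kappaB pathway, 1 row per list with the number tested in brackets. Filled symbols mark genes whose groups do not overlap, dark bars the median of each list and the dashed line the median of all tested genes. The 9 brakes lie above 0, while the 20 target genes run from CCL5 at -1.01 to CXCL8 at 1.12.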

How the data were processed

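RNA-seq of 2 knockdown and 2 control libraries was analysed from the authors' deposited FPKM values, 1 per gene and library with 2 decimals; the authors' deposited table also holds a fold (ratio of group means) and its log2. The submitters' processing notes name, without roles, the aligner HISAT2 (2.0.4), the assembler StringTie (1.3.4d), cutadapt (1.9), edgeR and DESeq2. The build, the annotation and the strand setting of the quantification were not given in the sources used here. Per the labels' protocols, poly(A) RNA was copied with dUTP and read as pairs of 150 bases.

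Values were tested as log2(FPKM + 1) with the R package limma (3.58.1, under R 4.3.3; group as the only term, trend on) for genes whose mean reached 1 FPKM in either group. This scale understates differences of low genes, and "times as high" is a ratio of mean FPKM. The genes and pathway lists were chosen with earlier results of these data known. Besides the 10 genes, the text names WFDC21P, genes of each list past the threshold or with the 3 smallest p, and the nearest profiles of the 2 genes with the largest log2 fold change. For SOD2, with 2 rows, the higher row was used. Gene positions are from GENCODE 29 (58552 of 58825 IDs matched), and sequences are from RefSeq (GRCh38.p14). The table holds no read totals: at the best depth tried, 29.8% to 32.6% of low values of short genes fell within 0.1 of a whole read (median over depths 18.7% to 19.2%), so reads were not recovered, depth is unknown and no counting interval is given. Between 22351 and 22780 genes were above 0 in a library. There were 0 columns without a sample. Alternatives covered the pseudocount, filter, scaling, variance moderation, replicate block and leaving out libraries.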

Additional observations from a re-analysis of the deposited data

How the results depend on the processing

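Neither the 10 genes' calls (0 past the threshold) nor the signs of TNFAIP3, RELB, NFKB1, BIRC3 and NFKBIE depended on any of the alternatives run for them. For NFKBIE the unchanged sign says little. Its log2 fold change was 0.0815 in the main fit, below the median of 0.0909 over all tested genes, and 0.00158 under median centring. The adjusted p of TNFAIP3 lay between 0.0659 and 0.266, that of RELB between 0.109 and 0.352 and that of NFKB1 between 0.0908 and 0.365; RELB, NFKBIE and REL had no value under the stricter filter of 5 FPKM. Signs turned under quantile normalization for NFKB2 (-0.07) and NFKBIA (-0.093), under median centring for NFKB2 (-0.026) and NFKBIA (-0.041), and with nuclear genes rescaled for NFKBIA (-0.0039), where 3, 3 and 2 genes lay below 0. Over the 4 fits that left out 1 library, log2 fold changes ran from -0.021 to 0.13 for NFKB2, -0.039 to 0.12 for NFKBIA, -0.43 to 0.38 for RELA, -0.075 to 0.57 for REL and -0.040 to 0.42 for NFKBIZ; turned values were -0.0060 for NFKB2, 0.19 for RELA and -0.039 for NFKBIA without knockdown replicate 1, 0.38 for RELA and -0.015 for NFKBIA without control replicate 1, and -0.021 for NFKB2, -0.075 for REL and -0.040 for NFKBIZ without control replicate 2. Over all alternatives the number below 0 ranged from 1 to 4, and the median of the 10 from 0.068 under quantile normalization to 0.40 without control replicate 1 (0.0755 to 0.40 over the fits without 1 library). The difference in the RELB share, 2.36 percentage points, became 2.62 under quantile normalization.

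Over all genes, 14 were called higher and 17 lower; no gene was called when any 1 library was left out (0 in each direction, 1797 to 2251 genes at an unadjusted p under 0.05) or with no filter (0 and 0, 3876 genes). The stricter filter called 31 higher and 27 lower, no trend 8 and 9, and quantile normalization 17 and 40. With the replicate number as a block, limma called 0 higher and 0 lower (3791 genes at an unadjusted p under 0.05); deviations of equally numbered libraries correlated at 0.124 across genes, but with 2 pairs the numbers do not show pairing. The median of the target list was 0.0145 under the stricter filter, with 8 genes above 0, 0.0707 under quantile normalization, 0.0719 under median centring and 0.0653 to 0.2363 without single libraries. The causes were not tested. The read depth is unknown, so a limit from depth cannot be stated.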
